A study of Aegilops tauschii x Triticum turgidum with 4 samples.

Results

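A set of 238 probes gave no signal well above background in crowns of triploid wheat hybrids that showed severe growth abortion (SGA), but did so in crowns of hybrids of wild-type appearance. They are called wild-type-only probes here, a name for this detection pattern and not for absence from SGA, where many kept a weak signal. They were chosen from 37826 non-control probes of a single-colour oligonucleotide array by the detection flag of the scanner software, which compares each spot with its background. A probe was taken when the flag was set on neither SGA array and on both wild-type arrays, when no array marked its spot as an outlier, and when its name did not begin with whsh_allContig or ncbi_gi_. They made up 0.65% of the 36605 probes that the outlier and name conditions left, and 0.902% of the 26394 among these that were well above background on both wild-type arrays. The same detection pattern was shown by 15 further probes of the first left-out name class and 3 of the second. The choice rests on the comparison of SGA with wild type itself, so the fall of these probes is described below and not tested.

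The SGA group consisted of 2 arrays of hybrids labelled as the SGA line, and the wild-type group of 2 arrays of hybrids labelled as wild type. All were triploid hybrids of Aegilops tauschii and tetraploid wheat (Triticum turgidum), grown at 23 °C for 3 weeks, with total RNA taken from the crown. The titles speak of shoot meristem and the tissue field of crown leaf, and the extraction protocol was followed here. The design text compares a pair of hybrids, one per phenotype, without naming their parents, so parentage and phenotype cannot be told apart. It calls the 2 arrays of a group independent experiments, with separate plants not stated, so the spread between them may be technical. The crown is the base of the shoot, which holds the shoot apical meristem and the young leaf bases. The cross joins the A and B genomes of tetraploid wheat with the D genome of Aegilops tauschii, as in the origin of bread wheat, and some parental combinations give hybrids whose growth stops. The title of the series places the defect in cell division at the shoot apex. In whole crown tissue, a loss of the cells that make a transcript and less of that transcript per cell cannot be told apart.

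The SGA arrays had 29981 and 30258 non-control probes above that level and the wild-type arrays 27627 and 28749, with 0 saturated spots on each. Detection was judged on unscaled signal, and the median signal was 503 and 543 on the SGA arrays and 238 and 228 on the wild-type arrays. The wild-type-only probes were therefore below detection on the arrays that were brighter for the typical probe. That brightness does not set the level needed for detection, and the lowest signal called on each array is given below. The files pair probe names with no genes, and no sequence or annotation of the probes was used here. The 7 gene lists (cell cycle, shoot meristem and organ identity factors, photosynthesis, ribosome, defence, cold and dehydration, repeats) matched 0 of the 238 names. Over all non-control probes they matched 6 names, all in the list for cold and dehydration. Neither the tissue label nor any match to genes studied by the authors could therefore be checked by gene name.

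Most wild-type-only probes were dim in wild type. Their unscaled signal had a median of 9.61 on SGA array 1, with a range of 4.29 to 30.1, and a median of 12.8 on SGA array 2, with a range of 4.51 to 33.8. In wild type the median was 54.2 on array 1, with a range of 22.6 to 2450.1, and 54.4 on array 2, with a range of 17.4 to 2026. For comparison, the lowest signals called well above background were 21.6 and 22.6 on the SGA arrays and 21.4 and 15.0 on the wild-type arrays. A signal between 15.0 and 21.6, such as the lowest of 17.4 on wild-type array 2, could thus be called there and not in SGA. A wild-type mean over 100 was reached by 61 of the 238 probes, over 500 by 12 and over 1000 by 3, while 106 lay under 50. Together the probes held 0.00136% and 0.00150% of all plant signal on the SGA arrays and 0.0177% and 0.0180% on the wild-type arrays.

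Among all probes well above background on both wild-type arrays, the wild-type-only probes had a median percentile of 8.40 by wild-type signal. Signal also depends on how well each probe binds, so this ranks probes and not amounts of transcript. The lowest 10% of that distribution held 132 of them (55.5%), percentiles 10 to 25 held 64, and percentiles 25 to 50 held 33. Between percentiles 50 and 75 there were 9, and above percentile 75 there were 0. For comparison, the 115 probes that stayed well above background on all 4 arrays and were over 16-fold lower in SGA had a median signal of 693 in SGA and 8738 in wild type, against 12.1 and 55.1 for the wild-type-only probes. They held 0.112% and 0.108% of plant signal on the SGA arrays and 1.67% and 1.69% on the wild-type arrays. A probe has to be bright in wild type to stay detected after such a fall, so the choice of both sets fixes part of this difference, which was not tested.

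The wild-type signals were close between the 2 arrays for most of these probes. After scaling each array to the 75th percentile of its non-control probes, the median absolute difference between the wild-type arrays was 0.16 on the log2 scale for the wild-type-only probes. It was 0.22 for the 4130 probes detected on both wild-type arrays whose signal lay between the quartiles of the wild-type-only probes, and 0.091 for all probes detected on both. The wild-type-only set also holds probes outside those quartiles, so these sets are not matched in brightness. The wild-type arrays differed by less than 0.5 log2 units for 202 of the 238 probes and by more than 1 unit for 12. The widest difference was 2.48 log2 units, in a probe with signals of 5.26 and 5.30 in SGA and 156 and 25.3 in wild type. Its wild-type mean rests largely on 1 array.

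Most wild-type-only probes were not empty in SGA, so the word lost would overstate the result, and wild-type-only describes the detection flag alone. A second flag of the software asks whether the signal is positive and significant against local background, which is less strict at low signal. By this flag 154 of the 238 probes (64.7%) still had signal on both SGA arrays, 27 (11.3%) on 1 of them and 57 (23.9%) on neither. The median SGA signal of these classes was 15.6, 6.11 and 5.21, and the median wild-type signal 44.6, 61.2 and 84.0, in the same order. Their lower bounds of the fold, defined below, had medians of 3.56, 4.85 and 6.99, and the highest were 75.4, 44.8 and 189. For the dimmest spots the processed signal is a small positive surrogate, so the background-subtracted signal was read as well. This was at or below the 95th percentile of the 153 negative control spots for 93 of the 238 probes on SGA array 1 (limit 7.14) and for 106 on SGA array 2 (limit 10.6), against 0 on each wild-type array. The wild-type count follows from the rule, which asked for detection on both wild-type arrays.

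Since the SGA signal was not well above background, the fall was measured as a lower bound. The mean scaled log2 signal of the wild-type arrays was set against the mean over the SGA arrays of the higher of 2 values, the probe's own signal and the lowest signal called well above background on that array. Where the probe's own signal was the higher on both SGA arrays, the bound equals the measured fold. The median bound was 4.62-fold lower in SGA, with quartiles of 2.85 and 9.10 and a range of 1.74 to 189. The bound reached 2-fold for 236 probes, 4-fold for 135, 10-fold for 55, 50-fold for 10 and 100-fold for 3. On slide 1 alone, which carried the first array of each group, 58 probes reached 10-fold, and on slide 2 alone 56. The bound follows the wild-type signal closely, because the SGA side is held at the floor or, where higher, at the probe's own low signal. The 55 probes with a bound of at least 10-fold had wild-type means of 121 to 2238, and the other 183 had means of 20.9 to 119. Of the 55, 52 differed by less than 0.5 log2 units between the wild-type arrays.

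The size of the bound depended on the scaling, since the 75th percentile itself was 2671 and 2813 on the SGA arrays and 1541 and 1395 on the wild-type arrays. Scaled to the 7 spike-in probes, which are synthetic RNAs added as an external standard, the median bound was 2.49-fold, 137 probes reached 2-fold, 28 reached 10-fold, and 2 had a bound of 1 or less. Under normexp background correction the median was 2.59-fold and 13 probes reached 10-fold. The measured log2 difference of SGA minus wild type was below 0 for all 238 probes under each of the 7 scalings and corrections run. A signal below detection in SGA while above it in wild type largely sets that direction.

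In the fit across all tested probes (limma, two-sided, adjusted p under 0.05), 238 of the 238 wild-type-only probes were called lower in SGA, beside 29.8% of all 30005 tested probes. The median log2 difference was -3.30 for the wild-type-only probes and 0.16 for all tested probes. The rule used the same contrast, so this count is set by the choice of probes and supports nothing further.

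The highest bound belonged to probe MUGEST2003_23lib_Contig14474_774. Its unscaled signal was 5.42 and 5.14 on the SGA arrays and 2450.1 and 2026 on the wild-type arrays, a bound of 189-fold lower in SGA. Its background-subtracted SGA signals, 1.94 and -2.00, lay below the 95th percentile of the negative controls. The next was probe whkp19p08_253, with 4.56 and 4.94 in SGA and 2086 and 1960.5 in wild type, a bound of 171-fold. They stood at percentiles 72.5 and 71.0 of wild-type signal, and within each group the arrays were close while the groups were far apart. Within slides 1 and 2 the bounds were 197-fold and 181-fold for the first probe and 168-fold and 175-fold for the second. Under the other scalings and corrections the first ranged from 47.7-fold with normexp to 227-fold with median scaling, and the second from 50.6-fold to 206-fold.

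The probes that followed showed the same shape at lower wild-type signal. The third had 6.32 and 5.81 in SGA and 1754 and 1505 in wild type, a bound of 138-fold. The fourth had 4.99 and 5.63 in SGA and 1037 and 952 in wild type (84.2-fold), and the fifth 5.84 and 5.81 in SGA and 958 and 877 in wild type (77.7-fold). None of the 3 had a positive and significant signal on either SGA array.

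The sixth and seventh probes differed from them in keeping a weak signal in SGA. The sixth had 7.05 and 7.85 in SGA and 948 and 836 in wild type (75.4-fold), positive and significant on both SGA arrays. The seventh had 19.6 and 21.4 in SGA and 845 and 795 in wild type (69.4-fold). Its SGA signals were just under the lowest signal called well above background, so its bound is close to a measured fold. Of the 55 probes with a bound of at least 10-fold, 24 had a positive and significant signal on both SGA arrays. The remaining probes of the first 10 lay close behind. The eighth had 5.13 and 5.92 in SGA and 815 and 643 in wild type (61.4-fold), and the tenth had 4.78 and 5.29 in SGA and 656 and 584 in wild type (52.4-fold). For the 15 probes ranked 11 to 25, the SGA signal ran from 4.31 to 19.8 with a median of 5.63 on array 1, and from 4.63 to 25.7 with a median of 6.41 on array 2. Their wild-type signal ran from 264 to 599.97 with a median of 293 on array 1, and from 219.9 to 491 with a median of 270.4 on array 2. Their bounds lay between 20.8-fold and 44.8-fold, and 6 of the 15 had a positive and significant signal on both SGA arrays and 8 on neither.

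One wild-type-only probe is named by a sequence accession, AF207545, and it ranked 42nd. Its signals were 19.5 and 19.1 in SGA and 197 and 149 in wild type, a bound of 14.5-fold lower in SGA. The SGA values were close to each other and positive and significant on both arrays. Across the other scalings and corrections its bound ranged from 5.38-fold to 18.2-fold.

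At the edge of the rule the values ran into each other. The lowest bound, 1.74-fold, belonged to a probe with 12.7 and 11.0 in SGA and 24.3 and 17.4 in wild type. The probe ranked 236th had unscaled signals of 24.0 and 25.9 in SGA and 32.9 and 21.6 in wild type. Its signal on wild-type array 2 was thus below that on either SGA array. Just outside the rule were 80 probes detected on both wild-type arrays and on 1 SGA array, with a median signal of 26.3 in SGA and 44.4 in wild type. The brightest of them had 17.1 and 30.6 in SGA and 3433 and 2629 in wild type. A further 417 probes were detected on 1 wild-type array and on neither SGA array, with a median signal of 9.501 in SGA and 20.9 in wild type.

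By name, 73 of the 238 probes (30.7%) had names beginning with wheat0130, 66 (27.7%) with MUGEST2003, 40 (16.8%) with rwh, 50 (21.0%) with wh followed by other letters or digits, 8 (3.36%) with whfl_allContig, and 1 had another name. Among all probes detected on both wild-type arrays, outside the left-out classes, the same names made up 43.0%, 19.0%, 12.7%, 16.4%, 3.95% and 0.405%, in that order. The 1194 such probes with other MUG names, 4.52% of those detected, held 0 of the wild-type-only probes. No source used here says what these letters stand for. When the array was cut into 4 bands by row, the bands held 62, 66, 60 and 50 of the probes, of 9318, 9578, 9588 and 9342 non-control probes. The 4 bands by column held 62, 48, 52 and 76, of 9612, 9496, 9481 and 9237. Each band thus held some of them. The last column band held the most wild-type-only probes and the fewest of all probes, and this spread was not tested.

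Probes that share a clone or contig name with a wild-type-only probe, and are not wild-type-only themselves, give a reading that the rule did not use. Names were paired when they differed by a leading r or by a letter p or m before the last number. What these letters mean is not stated, so that 2 such probes read 1 transcript is inferred from the names alone. Of the 238 probes, 57 had a partner by name, counting partners that were wild-type-only themselves. In 2 pairs both probes were wild-type-only, so the rule used both readings and neither is independent of it. In the pair ranked 16th and 88th, the first had 4.65 and 5.18 in SGA and 322 and 290 in wild type, and the second had 4.86 and 5.33 in SGA and 80.2 and 60.01 in wild type. In the pair ranked 208th and 212th the groups were much closer. The first of these had 17.6 and 20.4 in SGA and 23.5 and 33.6 in wild type and the second 22.4 and 23.3 in SGA and 26.9 and 30.3 in wild type, with bounds of 2.38-fold and 2.34-fold.

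Most of the other 54 partners gave no reading of the change. Of these, 29 were well above background on no array, wild type included, and 2 on 1 array only. A further partner, that of the probe ranked 4th, had an outlier flag and was not tested. It was well above background on all 4 arrays, with unscaled signals of 1086 and 789 in SGA and 458 and 471 in wild type. The other 22 were tested, all of them above background on all 4 arrays. In the fit, 17 of the 22 were called lower in SGA and 0 higher (limma, adjusted p under 0.05), beside 29.8% lower and 43.1% higher among all tested probes. Their median log2 difference was -0.84, against 0.16 for all tested probes. With spike-in scaling 7 were lower and 4 higher, beside 9.85% and 77.4% of all tested probes, and the median was 0.054, against 1.05 for all tested probes. Spike-in scaling moves all probes by the same amount, so the partners lay below the median of all tested probes by as much under both scalings, and only their side of 0 depends on the scaling. Without SGA replicate 1 the count called lower was 10, with a median log2 difference of -0.73, beside 21.3% of all tested probes called lower.

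The fall of the wild-type-only probes was measured as a lower bound, so each partner was set against that bound. Of the 22 partners, 18 had a decrease smaller than the bound, or an increase, and for 6 of them the gap was over 4-fold. By the measured log2 differences, the median gap between partner and wild-type-only probe was 2.05. By this measure 12 of the 22 partners were higher by over 4-fold. In wild type 19 of the 22 partners were brighter than the wild-type-only probe. The wild-type-only probes were chosen for being low in SGA and their partners were not, which fixes part of either gap.

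The partners of single probes differed widely. The probe ranked 80th had 13.7 and 17.4 in SGA and 71.1 and 77.1 in wild type, and its partner had 243 and 221 in SGA and 1264 and 1056 in wild type. The partner's log2 difference was -3.22 ± 0.099 (SE, limma, n = 2 per group, adjusted p = 0.000126), and the wild-type-only probe had a bound of 6.27-fold lower in SGA. The probe ranked 50th had 6.05 and 5.70 in SGA and 139 and 130 in wild type, and its partner had 69.4 and 86.3 in SGA and 387 and 333 in wild type. The partner's log2 difference was -3.12 ± 0.10 (SE, limma, n = 2 per group, adjusted p = 0.000148), and the partner stayed well above background in SGA.

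The probe ranked 13th went with the partner of the highest log2 difference among the 22 tested. The probe had 19.8 and 25.7 in SGA and 511 and 453 in wild type, whereas its partner had 276 and 351 in SGA and 117 and 130 in wild type. Other tested partners also had higher unscaled signal in SGA, some of them called lower after scaling. The SGA arrays were brighter for the typical probe. For the partner of the probe ranked 13th, the log2 difference was 0.43 ± 0.15 (SE, limma, n = 2 per group, adjusted p = 0.068). With the replicate block that partner was called higher in SGA (limma, adjusted p = 0.00683). These pairs were singled out after their values were seen.

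Across the whole array, partner probes tracked each other better for 1 kind of name than for the other. Among 1125 pairs of probes with and without a leading r, both above background on all 4 arrays, the log2 differences correlated across pairs with Pearson's r = 0.70 (Spearman's rho = 0.67). In 2.84% of them the differences were more than 4-fold apart. Among 73 pairs with p and m, Pearson's r was 0.27 (Spearman's rho = 0.32) and 15.1% were more than 4-fold apart. These are correlations across probe pairs measured on the same 4 arrays, and the pairs are not independent replicates. Of the 19 wild-type-only probes whose names carry p or m, 16 carried p and 3 carried m. Among all probes of these names 344 with p and 224 with m were well above background on both wild-type arrays, of which the wild-type-only probes made up 4.65% and 1.34%.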

How the data were processed

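Total RNA of crowns was labelled with Cy3, per the labels' protocols, and hybridised to 4 single-colour arrays. Spots were quantified with Agilent Feature Extraction 9.5, per the submitters' processing notes. As deposited, the scanner files give spot intensity on a linear scale, with background taken off and no normalization between arrays. In the value table deposited by the authors, each array's intensity is multiplied by a constant (0.803 and 0.767 for SGA, 1.04 and 1.17 for wild type), a step that no source used here explains. The 0 or 1 flags of the scanner files mark detection and outlier spots.

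Intensities were taken as log2 minus the 75th percentile of all 37826 non-control probes. The 9 with an outlier flag were left out of the rule and the test. Probes with both arrays of at least 1 group well above background were tested (30005) with limma 3.58.1 in R 4.3.3 (lmFit and eBayes, two-sided, Benjamini-Hochberg adjustment, threshold 0.05) over all 4 arrays. The test was checked on simulated data with few changed probes and independent noise. Far more probes were called here, so that check does not bear on this setting. Python 3.11.15, pandas 2.3.3, numpy 2.4.6, R package data.table (version 1.17.8) and jsonlite 2.0.0 were used for the tables.

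Per the file headers, same-numbered arrays of the groups shared a slide, which pairs them, and their deviations from the group means correlated across tested probes (r = 0.20). SGA always lay at position 4 of its slide and wild type at position 3, so array position cannot be told apart from phenotype. An exact permutation test of 2 against 2 arrays has 0.333 as its smallest two-sided p, and the number of arrays limits the precision.

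The probes and gene lists were chosen with earlier results of these data known. With no gene names, the rule allowed the 2 probe names with the highest bound, and any named by a sequence accession. The files hold no mean spot intensity, so normexp (offset 50) used median intensities. Alternatives were other scalings, background correction, detection flags, filters, the replicate block, single slides and leaving out each array.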

Additional observations from a re-analysis of the deposited data

How the results depend on the processing

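The median lower bound (2.21 on the log2 scale) was 2.47 with median scaling, 1.32 with spike-in scaling, 1.57 with total-signal scaling, 1.80 in the authors' deposited value table, 2.58 with quantile normalization, 1.37 with normexp, 1.98 with the positive and significant flag for detection, 3.30 with no floor on the SGA side, and 2.81 among the 57 probes with no residual signal in SGA. The number of bounds of at least 10-fold (55) was 28 with spike-in scaling, 13 with normexp, 117 with no floor and 26 among those 57 probes. Each scaling shifts the groups against each other, and the floor removes the part of the fall below detection. The offset of normexp shrinks the folds of dim probes. Leaving out each array gave 2.11 to 2.27 for the median bound, 55 to 58 bounds of at least 10-fold, and 266 to 541 wild-type-only probes, where a dropped array drops a condition, so that count could only stay or grow. Without wild-type replicate 1 it was 541. With the other detection flag 253 probes fitted the rule, with outlier spots kept 239, and in all name classes 256.

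The median wild-type percentile (8.40) was 33.6 among all non-control probes and 3.94 with the other detection flag. For the same 238 probes it was 8.18 to 8.53 without a wild-type array. Of all tested probes, 8944 were called lower, against 2955 with spike-in scaling, 4119 with total-signal scaling and 5389 in the authors' values. Other settings gave more: 12194 with median scaling, 9263 with quantile normalization, 10864 with normexp and 12182 with no filter on dim probes. Wild-type-only probes called lower numbered 220 to 238 over all alternatives run. With the replicate block they numbered 236, among 9363 of all tested probes. A filter for detection on all 4 arrays admits none of them. Same-name partners called lower (17 of 22) numbered 7 with spike-in scaling, 8 with total-signal scaling and 10 in the authors' values. They numbered 19 with median scaling, 19 with quantile normalization, 20 with normexp and 18 with the replicate block. The partner comparison, normexp on median intensities and the class with no residual signal were chosen after seeing the data. Signal over background limits these probes: 106 of 238 had a wild-type signal under 50.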
